A study of Mus with 10 samples.

Results

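The 6 genes described here are *Ly6a*, *Ly6c1*, *Ly6c2*, *Ly6e*, *Ly6d* and *Thy1*, taken by name from the 24564 genes of the deposited count table. They were examined in type 1 innate lymphoid cells (ILC1s), tissue-resident lymphocytes sorted from the liver of C57BL/6 mice in early adulthood. In Ncr1gfp/gfp mice, gfp stands in place of both copies of *Ncr1*, which encodes the activating receptor NKp46, whereas Ncr1+/+ mice carry the intact gene. The Ncr1+/+ cells were Lin-NK1.1+NKp46+CD49b-CD49a+ and the Ncr1gfp/gfp cells were Lin-NK1.1+GFP+CD49b-CD49a+, so that the gate itself differed between the genotypes in 1 marker. The lineage antibodies included one against CD3. No treatment was given, and 5 libraries of each genotype were sequenced. The study speaks of RNA pools without giving the number of mice in each library, so p-values measure the spread between these libraries.

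Ly6 genes encode small surface proteins with finger-like loops, most of them tied to the membrane by a glycosylphosphatidylinositol (GPI) lipid anchor. Many of them sit in a cluster on chromosome 15, and several are induced by interferons. *Ly6a* encodes Sca-1, a marker of blood stem cells and activated lymphocytes, and *Ly6c1* and *Ly6c2* encode the closely related forms of Ly6C, known from monocytes, memory T cells and subsets of NK cells. *Ly6e* encodes a broadly expressed member that restricts the entry of some viruses, and *Ly6d* marks lymphoid progenitors committed to the B cell lineage and plasmacytoid dendritic cells. *Thy1* encodes CD90, a GPI-anchored protein of the immunoglobulin superfamily that is found on T cells and many innate lymphoid cells.

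The libraries held between 15796253 and 22623133 counts. *Ncr1* was at 259 ± 97.4 CPM (counts scaled to library size) in Ncr1gfp/gfp and 2028 ± 99.9 CPM in Ncr1+/+ ILC1s (n = 5 each, SD), without overlap. The ILC1 genes *Itga1* (CD49a), *Klrb1c* (NK1.1) and *Cd200r1* had reads in every library of both genotypes. The 9 ILC1 genes summed to between 7888 and 8073 CPM in Ncr1gfp/gfp and between 8162 and 8441 CPM in Ncr1+/+ libraries, without overlap. The largest part of this sum was *Il2rb* (CD122), at 3422 CPM in Ncr1gfp/gfp and 3722 CPM in Ncr1+/+ ILC1s. It was not called (adjusted p = 0.117, quasi-likelihood F-test of edgeR). Of the 9 genes, 6 had lower and 3 higher means in Ncr1gfp/gfp ILC1s. Among them *Il7r*, the interleukin-7 receptor, was called lower in Ncr1gfp/gfp ILC1s (84.5 against 166 CPM). *Itga1*, a gene of the sort gate, was higher in Ncr1gfp/gfp ILC1s but not called (971 against 779 CPM, adjusted p = 0.000482, quasi-likelihood F-test of edgeR). Each of the 10 libraries had reads on all 4 Y-linked genes examined. In a multidimensional scaling of the leading genes, Ncr1+/+ replicate 1 lay apart on the first dimension, at 1.95 against 0.08 for the next. The lowest library on that dimension was Ncr1gfp/gfp replicate 1, at -0.90. On the second dimension Ncr1gfp/gfp replicates 1 and 2 were the highest, at 1.30 and 0.96, followed by Ncr1+/+ replicate 1 at 0.77.

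To compare levels between genes, counts were divided by exon length (RPKM, which is CPM per kilobase). *Ly6e* was the highest, at 456 RPKM averaged over the 10 libraries, which placed it 48th of the 11463 genes that passed a filter on low counts. *Thy1* followed at 139 RPKM and rank 272, *Ly6c2* at 8.43 RPKM and *Ly6a* at 2.96 RPKM. *Ly6d* averaged 0.131 RPKM, and *Ly6c1* had no read in any library. The libraries of *Ly6e* spanned 398 to 503 RPKM and those of *Thy1* 110 to 181 RPKM, so that these neighbours in the order did not overlap. *Ly6c2*, between 4.19 and 14.3 RPKM, and *Ly6a*, between 1.31 and 6.73 RPKM, overlapped across libraries, although *Ly6c2* was above *Ly6a* within each of the 10.

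Of the 6 genes, 5 lie on chromosome 15. *Ly6d* is listed from 74592486 to 74593997, *Ly6e* from 74785481 to 74790335, *Ly6a* from 74825307 to 74828461, *Ly6c1* from 74874448 to 74879267 and *Ly6c2* from 74938591 to 74942401. *Ly6e* is on the plus strand and the other 4 are on the minus strand. *Thy1* lies apart from them on chromosome 9, from 43851467 to 43856662, plus strand. The table does not name the build of these coordinates, and they are not those of GRCm38.

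The stretch of chromosome 15 from *Psca* to *Gpihbp1* holds 25 genes of the table, 21 of which belong to the Ly6/uPAR family. Of these 21, 11 had no read in any library and only 4 passed the filter, namely *Ly6e*, *Ly6c2*, *Ly6a* and *2010109I03Rik* (*Ly6m*), the last at 2.43 RPKM. *Ly6i*, which lies between *Ly6e* and *Ly6a*, had 31 reads in 6 libraries, and *Ly6g*, the neutrophil gene next to *Ly6c2*, had 4 reads in a single library. Expression within the cluster was thus concentrated on *Ly6e*, as the plot of levels along the chromosome shows.

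**Figure D1:**
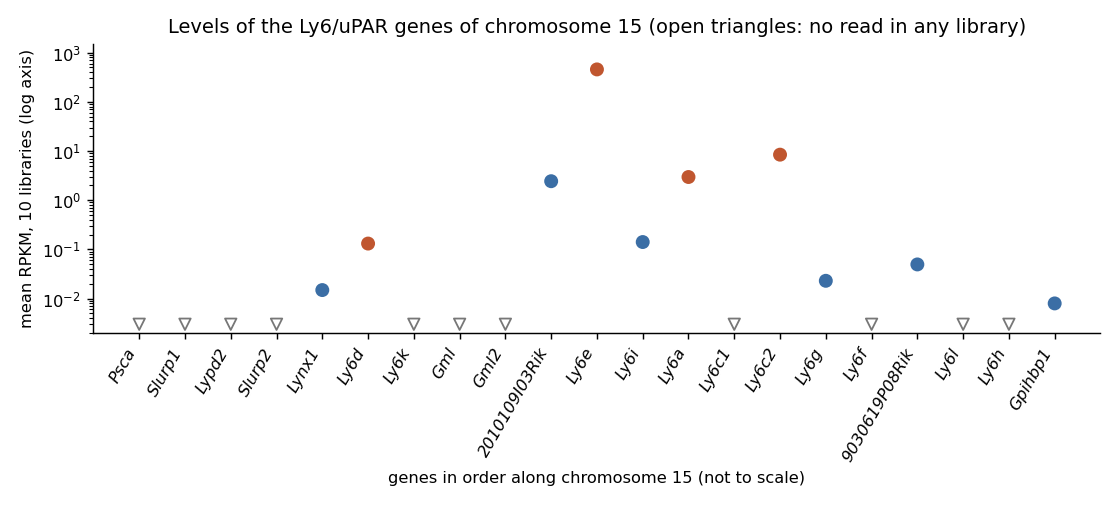
Mean RPKM over the 10 libraries (vertical log axis) of the 21 Ly6/uPAR genes between *Psca* and *Gpihbp1*, in their order on chromosome 15, with *Ly6a*, *Ly6c2*, *Ly6d* and *Ly6e* in orange and other genes with reads in blue. Open grey triangles mark the 11 genes without a read, *Ly6c1* among them, and *Ly6e* at 456 RPKM stands above all others.

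The genotypes were compared to ask whether these surface genes differ in ILC1s that lack NKp46. A gene was called when its Benjamini-Hochberg adjusted p-value was under 0.05 and its fold change was above 1.5 or below 0.7 (quasi-likelihood F-test of edgeR across all 11463 genes, from here on the edgeR test). Of the 6 genes, 4 passed the filter on low counts, and 0 of the 4 were called, against 0.733% of all tested genes (0.532% lower and 0.201% higher in Ncr1gfp/gfp). The 4 had reads in every library of both genotypes. All 4 had a lower mean in Ncr1gfp/gfp ILC1s, with log2 fold changes from -0.97 to -0.17 and a median of -0.54, beside a median of 0.00 over all tested genes, of which 49.3% were below 0. Their unadjusted p-values were each under 0.05, as were those of 11.4% of all tested genes, but none had an adjusted p-value under 0.05, where 1.35% of all tested genes did (0.785% in the lower direction). None of the 4 separated the genotypes without overlap, which 3.11% of all tested genes did (1.82% in the lower direction). One fit left out Ncr1+/+ replicate 1, the library that lay apart on the first scaling dimension. In it the log2 fold changes were -0.16 for *Ly6e*, -0.30 for *Thy1*, -0.64 for *Ly6c2* and -1.07 for *Ly6a*. The adjusted p-values of this fit were from 0.177 to 0.299 in the edgeR test. In such bulk libraries, fewer cells with a transcript and less RNA per cell cannot be told apart.

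**Figure D2:**
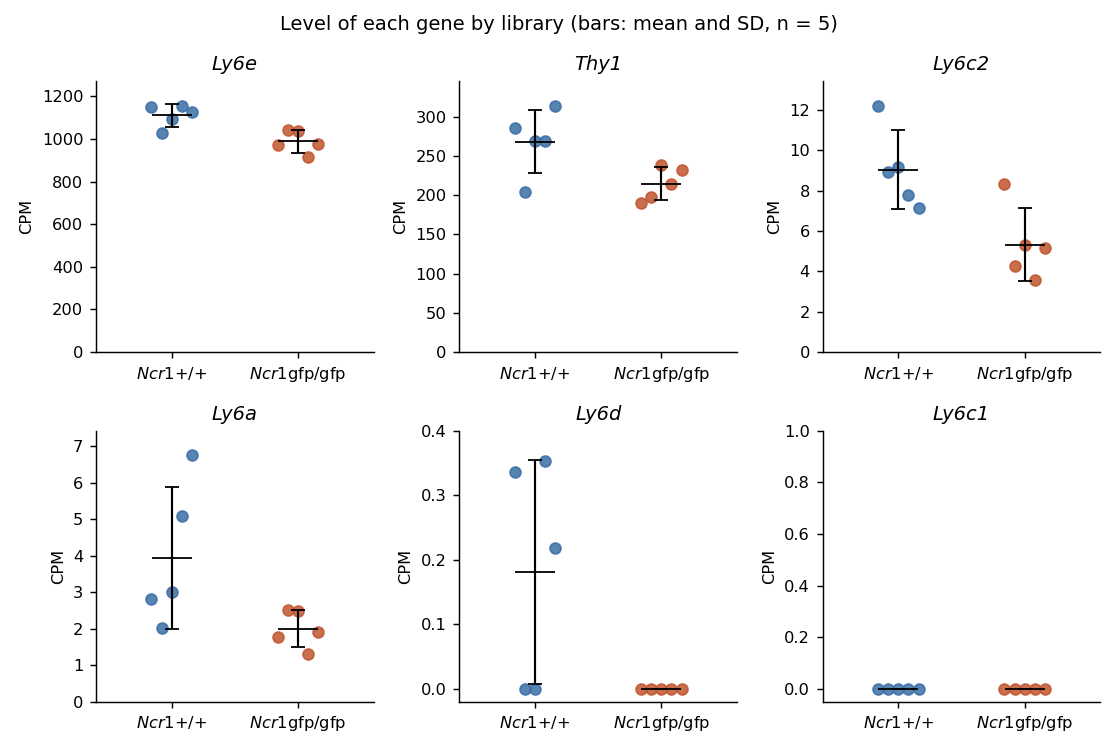
CPM of each gene (vertical axes, a linear scale for each gene) in the 5 Ncr1+/+ (blue) and 5 Ncr1gfp/gfp (orange) libraries, with points for libraries, in the order of replicates 1 to 5, and bars for the mean and SD. For *Ly6e*, *Thy1*, *Ly6c2* and *Ly6a* the Ncr1gfp/gfp mean is lower and the libraries overlap; *Ly6d* has reads in 3 Ncr1+/+ libraries and *Ly6c1* in none.

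*Ly6e* had 1148, 1028, 1093, 1156 and 1126 CPM in Ncr1+/+ replicates 1 to 5. In Ncr1gfp/gfp replicates 1 to 5 it had 969.7, 1041, 1038, 917 and 976 CPM. The genotypes overlapped only through Ncr1+/+ replicate 2, which lay below Ncr1gfp/gfp replicates 2 and 3. The means were 1110 ± 52.1 and 988 ± 52.1 CPM (n = 5 each, SD), and the log2 fold change was -0.17 (standard error 0.05, 95% interval -0.27 to -0.07). This did not pass the test over all genes (adjusted p = 0.0861, edgeR test), while the two-sided exact permutation test of this gene alone gave p = 0.0238. *Ly6e* was the most evenly expressed of the 4 genes, with a coefficient of variation of 5.28% in Ncr1gfp/gfp and 4.69% in Ncr1+/+ ILC1s, and its lowest count was 15281. On a linear scale the fold was 0.890, with an interval from 0.831 to 0.953. Without Ncr1+/+ replicate 2 the log2 fold change was -0.20 and the adjusted p-value 0.0444 (edgeR test), still short of the fold that a call needs.

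*Thy1* had 285, 204, 269, 269 and 314 CPM in Ncr1+/+ replicates 1 to 5. In Ncr1gfp/gfp replicates 1 to 5 it had 190.1, 197, 239, 215 and 233 CPM. Again Ncr1+/+ replicate 2 was the one library of its genotype within the range of the other, and the remaining 4 Ncr1+/+ libraries were above every Ncr1gfp/gfp library. The means were 268 ± 40.4 and 215 ± 21.3 CPM (n = 5 each, SD), with a log2 fold change of -0.32 (standard error 0.09, 95% interval -0.51 to -0.14). The adjusted p-value was 0.0834 by the edgeR test, and the exact permutation test of this gene alone gave p = 0.0476 (two-sided). *Thy1* crossed the adjusted threshold in 5 of the 18 alternative fits, the most of the 4 genes. Its adjusted p-value was 0.0254 with DESeq2 and 0.00848 in edgeR without a filter on low counts, but 0.107 with limma-voom. Without Ncr1+/+ replicate 2 the log2 fold change was -0.41 (adjusted p = 0.00604, edgeR test). The fold change stayed above 0.7 in each of these fits, so that *Thy1* was not called in any of them.

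Cells other than ILC1s also carry CD90, and their marker lists did not move in a single direction. The 10 T cell genes, led by *Cd3g*, summed to between 668 and 846 CPM in Ncr1gfp/gfp and between 513 and 617 CPM in Ncr1+/+ libraries, without overlap. Within this list *Cd3e* and *Cd8a* were called higher (21.1 against 5.71 CPM and 19.4 against 6.68 CPM) and *Cd28* lower (22.6 against 43.1 CPM) in Ncr1gfp/gfp ILC1s. The call of *Cd3e* held in all 18 alternative fits, whereas that of *Cd8a* was lost in 6 and that of *Cd28* in 4, among them DESeq2 and the fits without Ncr1gfp/gfp replicate 3 or Ncr1+/+ replicate 2 for both. The 8 genes of other innate lymphoid cells, which are rich in CD90, summed to between 154 and 202 CPM in Ncr1gfp/gfp and between 199 and 219 CPM in Ncr1+/+ libraries. Most of this was *Gata3*, which ILC1s also express, while the defining genes *Il1rl1* and *Il23r* averaged under 0.4 CPM, *Il22* was at 0, and *Kit* was called lower (18.9 against 32.0 CPM), a call lost in 9 of the 18 alternative fits, in 8 of them by leaving out a single library. Markers of stromal cells, some of which express *Thy1*, summed to between 0.200 and 3.98 CPM over all libraries, with *Lum* at 0. The part of such cells in the *Thy1* values was not tested.

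*Ly6c2* had 12.2, 8.91, 9.19, 7.77 and 7.12 CPM in Ncr1+/+ replicates 1 to 5. In Ncr1gfp/gfp replicates 1 to 5 it had 8.31, 4.25, 5.29, 3.57 and 5.17 CPM. Ncr1gfp/gfp replicate 1 was the one library that reached into the Ncr1+/+ range, and the other 4 were below every Ncr1+/+ library. The means were 9.04 ± 1.96 and 5.32 ± 1.82 CPM (n = 5 each, SD), with a log2 fold change of -0.77 (standard error 0.23, 95% interval -1.26 to -0.28). The adjusted p-value was 0.125 by the edgeR test, and the exact permutation test of this gene alone gave p = 0.0238 (two-sided). Single libraries moved its size. Without Ncr1gfp/gfp replicate 1 the log2 fold change was -0.98 with an adjusted p-value of 0.0277, which was the only fit in which any of the 6 genes was called. Without Ncr1+/+ replicate 1, apart on the first scaling dimension and the highest for *Ly6c2*, it was -0.64 with an adjusted p-value of 0.299 (edgeR test in both). Leaving out Ncr1gfp/gfp replicate 4, its lowest library, gave -0.66.

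*Ly6c1*, the close copy of *Ly6c2*, was listed at 0 in all 10 libraries. A count of 0 allows up to 3 reads, or 0.0333 CPM over the Ncr1gfp/gfp and 0.0304 CPM over the Ncr1+/+ libraries, for reads that map to 1 place only. Reads that fit both copies equally are left out by the counting, so that part of the Ly6C signal may be missing from both genes. The summed level of the pair was that of *Ly6c2* alone, and no split between the copies could be compared.

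The monocyte and macrophage marker list, whose cells are known for Ly6C, was also lower in Ncr1gfp/gfp ILC1s. Its 10 genes summed to between 119 and 256 CPM in Ncr1gfp/gfp and between 274 and 364 CPM in Ncr1+/+ libraries, without overlap. Most of this sum was *Ccr2*, a chemokine receptor, at 161 and 265 CPM (called lower, adjusted p = 0.00258, edgeR test), whereas *Csf1r*, a defining gene of these cells, was at 6.27 and 7.44 CPM and *Lyz2* at 9.19 and 11.9 CPM. *Cd14* and *Fcgr1* were each under 0.3 CPM on average in both genotypes. The list of NK cells, subsets of which carry Ly6C, had the opposite order in its sum. Its 10 genes summed to between 221 and 333 CPM in Ncr1gfp/gfp and between 172 and 206 CPM in Ncr1+/+ libraries, without overlap. *Itgam* (CD11b), with the widest difference of the list in CPM, was called higher (96.0 against 49.4 CPM), while the defining gene *Eomes* averaged 10.2 and 7.10 CPM. Of the 9 tested genes 8 had higher means in Ncr1gfp/gfp ILC1s, with a median log2 fold change of 0.27. Without Ncr1gfp/gfp replicate 1, 6 of the 9 were lower and the median was -0.02. This library had the highest NK cell sum, and the highest *Ly6c2* level of its genotype. The part of these cells in the *Ly6c2* difference was not tested.

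*Ly6a* had 2.80, 2.03, 3.00, 5.09 and 6.74 CPM in Ncr1+/+ replicates 1 to 5. In Ncr1gfp/gfp replicates 1 to 5 it had 1.78, 2.51, 2.49, 1.31 and 1.90 CPM. Ncr1+/+ replicates 4 and 5 were far above all other libraries, and Ncr1+/+ replicate 2 lay within the Ncr1gfp/gfp range. The means were 3.93 ± 1.94 and 2.00 ± 0.51 CPM (n = 5 each, SD), with a log2 fold change of -0.97 (standard error 0.38, 95% interval -1.76 to -0.18). The adjusted p-value was 0.293 by the edgeR test, and the exact permutation test of this gene alone gave p = 0.0397 (two-sided). Counts were between 22 and 124 per library, and at 22 counts the counting error alone is 21.3%. The coefficient of variation in Ncr1+/+ ILC1s was 49.3%, the widest of the 4 genes. With Ncr1+/+ replicate 5 left out the log2 fold change was -0.69 (adjusted p = 0.605), and with both replicates 4 and 5 left out it was -0.38 (standard error 0.47, adjusted p = 0.895, edgeR test in both).

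*Ly6d* had 6, 7 and 4 reads in Ncr1+/+ replicates 1, 4 and 5 and none in the other 7 libraries. It did not pass the filter on low counts, and 2 of the 5 Ncr1+/+ libraries were themselves at 0. Exact permutation of CPM gave p = 0.167 (two-sided). With reads in only 3 libraries, all of them Ncr1+/+, this test could return no smaller value. It therefore cannot decide whether the genotypes differ. The 17 reads amount to 0.172 CPM over the Ncr1+/+ libraries (95% exact Poisson interval 0.100 to 0.276, counting error only). In the Ncr1gfp/gfp libraries, a count of 0 allows up to 0.0333 CPM.

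Markers of B cells and plasmacytoid dendritic cells, which express *Ly6d*, were near 0 but uneven. *Siglech*, a defining gene of plasmacytoid dendritic cells, had 12 and 21 reads in Ncr1+/+ replicates 4 and 5 and at most 3 in any other library. *Cd79a*, a part of the B cell receptor complex, had 7 and 8 reads in Ncr1+/+ replicates 3 and 5 and at most 4 in any other library. The 2 libraries with the most *Siglech* reads were also the highest for *Ly6a*, a gene that such cells can express, while Ncr1+/+ replicate 1 had 6 *Ly6d* reads without a read of *Siglech* or *Cd79a*. The list of 8 B and plasma cell genes summed to between 0.953 and 6.31 CPM over all libraries, with overlap between the genotypes. The list of 6 plasmacytoid dendritic cell genes summed to between 31.7 and 37.8 CPM in Ncr1gfp/gfp and between 35.0 and 54.7 CPM in Ncr1+/+ libraries, most of it from *Bst2*, which many cells express, and *Pacsin1*, which was called lower in Ncr1gfp/gfp ILC1s (14.1 against 23.6 CPM, adjusted p = 0.0495, edgeR test). This call was lost in 11 of the 18 alternative fits, including upper-quartile scaling, limma-voom and 8 of the 10 that left out a single library. Of the 3 tested genes of this list, *Pacsin1* had a lower and 2 had a higher mean in Ncr1gfp/gfp ILC1s. These 2 were *Bst2* and *Ccr9* (2.21 against 1.21 CPM for *Ccr9*), neither of them called, and the median log2 fold change was 0.05. The untested *Siglech*, *Klk1* and *Cox6a2* had lower means in Ncr1gfp/gfp ILC1s. The part of such cells in the *Ly6a* and *Ly6d* values was not tested.

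Endothelial cells are another liver source of *Ly6a*, *Ly6c1* and *Ly6e*. Their list of 10 genes summed to between 112 and 152 CPM, with overlap between the genotypes, and nearly all of it was *Pecam1*, which leukocytes share. *Cdh5*, *Kdr* and *Tek*, defining endothelial genes, averaged under 0.5 CPM in both genotypes, and *Lyve1* was at 0. In Ncr1gfp/gfp ILC1s the means of *Cdh5* (0.49 against 0.32 CPM) and *Kdr* (0.29 against 0.16 CPM) were higher. That of *Tek* was lower (0.04 against 0.08 CPM), and none of these genes passed the filter on low counts. *Stab2* averaged 0.85 CPM in Ncr1gfp/gfp and 1.04 CPM in Ncr1+/+ ILC1s, and *Stab1* 0.29 and 0.51 CPM. These 2 had lower means in Ncr1gfp/gfp ILC1s, *Pecam1*, the other tested gene, had a higher one, and 0 were called. The part of endothelial cells in the values of the Ly6 genes was not tested.

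The 4 tested genes did not vary together in the same way across libraries. After the mean of each genotype was subtracted from log2 CPM, *Ly6a* and *Ly6e* had a Pearson correlation of 0.74 and *Ly6a* and *Thy1* of 0.61 over the 10 libraries, whereas *Ly6a* and *Ly6c2* had -0.26. *Ly6c2* was highest in replicate 1 of the Ncr1+/+ libraries and lowest, within that genotype, in replicates 4 and 5, where *Ly6a* was highest. These correlations describe 10 libraries that share their sort, sequencing and normalization.

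Whether the 4 genes differed by unequal amounts was examined from their ratios within each library, which do not depend on library scaling. The log2 ratio of *Ly6a* to *Ly6e* was -8.99 ± 0.31 in Ncr1gfp/gfp and -8.28 ± 0.66 in Ncr1+/+ ILC1s, and that of *Ly6c2* to *Ly6e* was -7.60 ± 0.45 and -6.96 ± 0.30 (n = 5 each, SD). Both differences had p-values of 0.0397 and 0.0476 in two-sided exact permutation tests, and 0.143 when adjusted over the 6 ratios of the 4 genes. The other 4 ratios had adjusted p-values between 0.167 and 0.881 (exact permutation tests). No ratio of the 4 genes thus passed the threshold after adjustment.

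For each of the 4 genes, the 3 genes most like it across libraries were found from the same genotype-centred values. They were *2310009B15Rik*, *Gngt2* and *Tmem161a* for *Ly6a* (Pearson correlations of 0.96, 0.95 and 0.95), and *Aff1*, *Amot* and *Dgcr6* for *Ly6c2* (0.95, 0.94 and 0.93). For *Ly6e* they were *Yipf3*, *Ppp2r1a* and *Ilkap* (0.96, 0.95 and 0.94), and for *Thy1* they were *Fam151b*, *Nrbf2* and *Abi3* (0.92, 0.91 and 0.89). None of these is a Ly6 gene, and the values describe 10 libraries chosen from among 11463 genes.

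Outside the 6 genes, most of the Ly6/uPAR family had few or no counted reads. Reads that map to more than 1 place were left out by the counting, so levels of close copies may be higher. Of 37 further family genes in the table, 23 had no read in any library and 2 passed the filter, of which 0 were called. *Ly6g5b*, a family gene of the major histocompatibility region, had 8.36 ± 1.51 CPM in Ncr1gfp/gfp and 7.75 ± 2.29 CPM in Ncr1+/+ ILC1s (n = 5 each, SD), with a log2 fold change of 0.11 (adjusted p = 0.916, edgeR test). For *2010109I03Rik* the log2 fold change was 0.06 (adjusted p = 0.971 in the same test). Both had slightly higher means in Ncr1gfp/gfp ILC1s, though neither interval excluded 0.

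Since the proteins of all 6 genes reach the surface on a GPI anchor, the genes that build and remodel this anchor were examined. Of 29 in the table, 27 were tested, 16 had a lower and 11 a higher mean in Ncr1gfp/gfp ILC1s, and 0 were called. The median log2 fold change was -0.03, beside 0.00 over all tested genes. The lowest p-value was that of *Mppe1*, which trims the anchor, with 83.8 ± 8.48 and 103 ± 7.97 CPM in Ncr1gfp/gfp and Ncr1+/+ ILC1s (n = 5 each, SD; log2 fold change -0.30, adjusted p = 0.0604, edgeR test). Next were *Pigo* and *Pigv*, which add parts of the anchor, whose log2 fold changes were -0.16 and 0.13 (edgeR test, adjusted p = 0.496 and 0.601).

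Genes of other lymphocyte surface proteins with a GPI anchor were also examined. Of 11 tested genes of 18 in the table, 5 had a lower and 6 a higher mean, and 1 was called. That gene was *Nt5e*, which encodes CD73, an enzyme that makes adenosine. It rose from 26.8 ± 4.05 CPM in Ncr1+/+ to 40.8 ± 7.63 CPM in Ncr1gfp/gfp ILC1s (n = 5 each, SD; log2 fold change 0.61, standard error 0.13, adjusted p = 0.0139, edgeR test). At a fold of 1.53 it was close to the threshold of 1.5, and its call was lost without Ncr1gfp/gfp replicate 2, Ncr1+/+ replicate 2 or Ncr1+/+ replicate 4, and without both Ncr1+/+ replicates 4 and 5. *Cd55*, an inhibitor of complement, and *Sema7a*, a semaphorin, had log2 fold changes of -0.81 and -0.31 (adjusted p = 0.626 and 0.762 in the same edgeR test).

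*Ly6a*, *Ly6c2* and *Ly6e* are known interferon-induced genes, so a list of 40 other such genes was examined. All 40 were in the table and 39 were tested. Of these, 16 had a lower and 23 a higher mean in Ncr1gfp/gfp ILC1s, 0 were called, and the median log2 fold change was 0.02, beside 0.00 over all tested genes. The lowest p-values were those of *Slfn5*, a growth regulator, *Iigp1*, an interferon-inducible GTPase, and *Xaf1*, an antagonist of an apoptosis inhibitor. Their log2 fold changes were -0.53, -1.27 and 0.30, with adjusted p-values of 0.0560, 0.0634 and 0.347 (edgeR test). Both *Slfn5* and *Iigp1* were called lower with DESeq2, edgeR's likelihood ratio test, either other filter on low counts and without Ncr1+/+ replicate 2. In all, *Slfn5* was called in 7 and *Iigp1* in 5 of the 18 alternative fits. *Iigp1* had 2.66 ± 0.82 CPM in Ncr1gfp/gfp and 6.43 ± 2.37 CPM in Ncr1+/+ ILC1s (n = 5 each, SD). The summed level of the list was between 3240 and 3611 CPM in Ncr1gfp/gfp and between 3121 and 3483 CPM in Ncr1+/+ libraries.

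**Figure D3:**
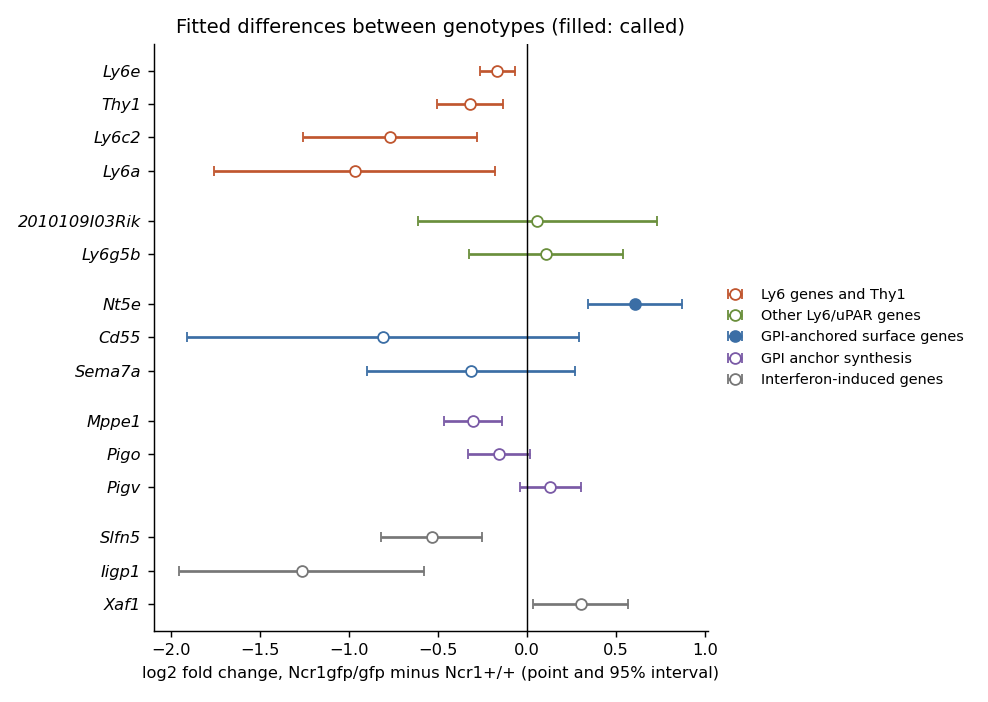
Log2 fold change of Ncr1gfp/gfp against Ncr1+/+ ILC1s (horizontal axis, point and 95% interval of edgeR's quasi-likelihood fit) for *Ly6e*, *Thy1*, *Ly6c2* and *Ly6a*, the other 2 tested Ly6/uPAR genes and the 3 genes with the lowest p-value in each of 3 lists. Filled points are called genes, of which *Nt5e* at 0.61 is the only one shown; the intervals of *Ly6a* and *Ly6c2* are several times as wide as that of *Ly6e*.

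Across 18 alternative fits, including each library left out in turn, the 4 genes gave 72 log2 fold changes, all below 0. The adjusted p-value was under 0.05 in 9 of these, and the fold threshold was also met in 1, for *Ly6c2*. Most of the lower adjusted p-values belonged to *Thy1* and *Ly6e*, the more abundant genes with the smaller changes.

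**Figure D4:**
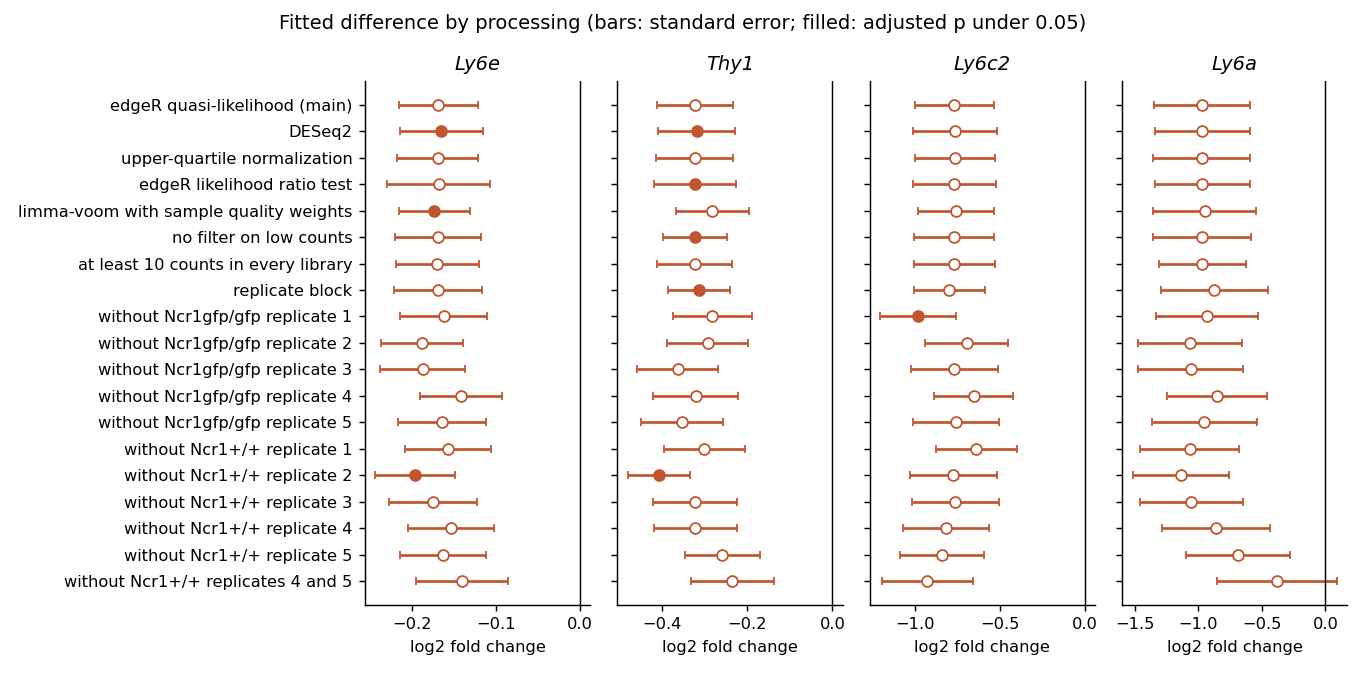
Log2 fold change (horizontal axes, separate scales) of *Ly6e*, *Thy1*, *Ly6c2* and *Ly6a* under each processing alternative (rows), with bars for the standard error and filled points for an adjusted p-value under 0.05. All values lie below 0, and the widest shift is that of *Ly6a*, to -0.38 without Ncr1+/+ replicates 4 and 5.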

How the data were processed

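RNA of sorted liver ILC1s (2 ng per sample) was polyA-primed and amplified, and the libraries were sequenced single-end over 51 cycles. The authors used Trimmomatic and FASTP for trimming, STAR for mapping and HTSeq with its defaults for counting, which drop any read with more than 1 mapping place, and deposited raw counts. The kit does not mark strand. From these counts, genes were filtered with filterByExpr (11463 of 24564 kept), scaled by TMM, and tested between genotypes with no covariate by edgeR's quasi-likelihood F-test (edgeR 4.0.16 on R 4.3.3). CPM and RPKM use TMM-scaled library sizes and the exon lengths of the table. Single values were compared by exact permutation tests (SciPy 1.17.1), whose smallest two-sided p-value is 0.00794 for 5 libraries against 5. This limit is higher where many libraries tie at 0, as for *Ly6d*. No pair of libraries of one genotype agreed within sampling noise (chi-square per gene of at least 9.21).

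Libraries were assigned to a genotype from their labels, and none was left out unless stated. Genes named are the 6 chosen genes, the most expressed other family genes, the 3 lowest p-values and all called genes of the lists of GPI synthesis, GPI-anchored and interferon-induced genes, the 3 genes most like each tested gene, *Ncr1* and defining markers. Further marker genes and neighbours on chromosome 15 were named after their values were seen. The genes and lists were chosen with earlier results of these data known, and the ratios between genes after their values were seen. In simulated data for this comparison over 11463 genes, 80 of 100 genes with a 2-fold change and 94 of 99 with a 4-fold change were called in the right direction. As alternatives, the comparison was rerun with limma-voom (limma 3.58.1), DESeq2 1.42.0, the likelihood ratio test of edgeR, upper-quartile scaling, other filters and thresholds, a replicate block and leaving out libraries. Counts of 3 correspond to 0.132 to 0.190 CPM. The limits for *Ly6c1* and *Ly6d* cover counting error only, because amplified reads are not independent molecules, whereas intervals of fold changes include the spread between libraries.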

Additional observations from a re-analysis of the deposited data

Results flagged for a closer look

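Each measure was examined for a library far from the rest of its genotype. The distance from the outermost library to its neighbour was divided by the span of all 5. Of 55 groups of libraries, 5 passed the limit of 0.71, where chance gives about 1 in 20, or 2.75. None of the 6 genes, their ratios or the library totals was among them. All 5 were sums of gene lists. The other Ly6/uPAR family genes summed to 19.7 CPM in Ncr1+/+ replicate 5, against 13.1 CPM in the next library. The NK cell list was 172 CPM in Ncr1+/+ replicate 4, against 197 CPM in the next. The monocyte and macrophage list was 119 CPM in Ncr1gfp/gfp replicate 2, against 219 CPM in the next. The hepatocyte list was 213 CPM in Ncr1gfp/gfp replicate 3 and 181 CPM in Ncr1+/+ replicate 1, against 147 and 146 CPM in the next libraries of their genotypes.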

How the results depend on the processing

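The direction of *Ly6a*, *Ly6c2*, *Ly6e* and *Thy1* was the same in all fits run. With every library kept, the adjusted p-value fell under 0.05 for *Ly6e* with DESeq2 (log2 fold change -0.16) and limma-voom (-0.17), and for *Thy1* with DESeq2 (-0.32), edgeR's likelihood ratio test (-0.32), no filter on low counts (-0.32) and the replicate block (-0.31, adjusted p = 0.0431). The cause was not tested. Leaving out each library in turn gave -1.14 to -0.69 for *Ly6a*, -0.98 to -0.64 for *Ly6c2*, -0.20 to -0.14 for *Ly6e* and -0.41 to -0.26 for *Thy1*. The summed level of *Ly6c1* and *Ly6c2* ranged from -0.98 to -0.67 and stayed under p = 0.05 in exact permutation tests. In pairs by replicate number it was -0.80 with p = 0.0625, the smallest that an exact sign permutation of 5 pairs allows. Samples with the same number did not deviate together (correlations from -0.02 to 0.04), so the numbers were not taken as pairs. With the block none of the 6 genes was called, and only *Thy1* had an adjusted p-value under 0.05.

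The number of genes called, 84, was 87 with the replicate block, 122 with DESeq2, 138 with the likelihood ratio test, 131 without a filter, 155 without a fold threshold and 23 with an absolute log2 fold change above 1. It was 60 to 98 when each library was left out. The log2 ratio of *Ly6a* to *Ly6c2* differed by -0.08 and ranged from -0.29 to 0.23 without single libraries. It was above 0 without Ncr1gfp/gfp replicate 1 (0.13), Ncr1+/+ replicate 4 (0.10) or Ncr1+/+ replicate 5 (0.23). The share of *Ly6c2* in the Ly6C pair was not tested, since *Ly6c1* was at 0. At the depth of these libraries, *Ly6a* rested on as few as 22 reads per library and *Ly6d* on 17 in all.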

Other observations

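Among the other Ly6/uPAR family genes, *Lypd6b*, which encodes a regulator of acetylcholine receptors, had the third highest level but did not pass the filter on low counts. It had 27, 21, 1, 26 and 9 reads in Ncr1gfp/gfp replicates 1 to 5 and 0, 1, 7, 15 and 6 reads in Ncr1+/+ replicates 1 to 5. The means were 0.961 ± 0.692 and 0.295 ± 0.303 CPM (SD, n = 5 each), and the libraries overlapped.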
